A study of Homo sapiens with 12 samples.

Results

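The genes described here are 43 genes of cholesterol and fatty acid synthesis that are controlled by the sterol regulatory element binding proteins. They were taken as a fixed list of symbols, matched by Ensembl identifier to the 60664 genes of the deposited table, and all 43 were matched. Of them, 37 averaged at least 1 TPM over the 12 libraries and were tested with 11088 genes in all. TPM is the abundance of a gene's transcripts per length, scaled to a fixed total per library. RNA had been sequenced from 4 groups of 3 libraries. Huh-7 cells and MHCC-97H cells had each received si-NC, a small interfering RNA serving as control, or si-CENPU, directed at CENPU. Both are human hepatoma lines, grown in the same serum-containing medium and given as wild type, and each siRNA was transfected. Whether the 3 libraries of a group are separate cultures is not stated in the labels. The p-values therefore reflect the spread between libraries, and that spread may be technical. A line difference here is one between 2 single lines, each with its own libraries. The targeted gene CENPU, a subunit of the inner kinetochore, averaged 0.643 ± 0.171 TPM (SD, n = 3) in the Huh-7 si-NC libraries and 0.243 ± 0.181 TPM in the si-CENPU libraries. The MHCC-97H means were 0.963 ± 0.181 and 0.303 ± 0.127 TPM. The groups did not overlap in either line, and the exact two-sided permutation p was 0.1, the smallest that 3 against 3 libraries can give.

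Cholesterol is built from acetyl-CoA through mevalonate and the isoprenoids to squalene, which is closed to lanosterol and trimmed to cholesterol in the endoplasmic reticulum. Fatty acids are built from the same acetyl-CoA and are activated to acyl-CoAs, which can then be elongated and desaturated. The precursors of the SREBP transcription factors are held in the endoplasmic reticulum by SCAP and the INSIG proteins when sterols are plentiful, and they are cut free in the Golgi when sterols fall. The liver is a main site of both syntheses in the body.

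SREBPs bind sterol regulatory elements in promoters and act there together with NF-Y, which binds CCAAT boxes, and Sp1, which binds GC boxes. Promoter sequences from RefSeq on GRCh38.p14 were matched for 39 of the 43 genes, in 55 windows. They run from 250 bases before to 50 bases after a start site, and only the 250 bases before it were searched. The letters TCACNCCAC, a core of the sterol regulatory element, were found on either strand in 2 of the 55 windows (3.64%), 1 of ACSL1 and 1 of SREBF2, against 0.883% of all 35116 windows. CCAAT was found on either strand in 31 of the 55 windows (56.4%), against 32% of all windows. GGGCGG was found in 44 of the 55 (80%), against 42.6%. These are matches of letters, and windows of 1 gene can share sequence. The stretches before the start sites of 4 genes are shown because they carry many of these matches or belong to genes that differed between the lines. MVD was lower in MHCC-97H (chr16:88663162-88663341, minus strand), NSDHL was higher there (chrX:152830813-152830966, plus strand), NPC1L1 was listed at 0 in 5 of 6 of its libraries (chr7:44541331-44541580, minus strand), and SREBF2 holds the sterol element in its own promoter (chr22:41832855-41833078, plus strand). Each is written 5′ to 3′ on the gene's strand, and capitals mark CCAAT on either strand and, in SREBF2, also the sterol element, which starts 133 bases before the start site.
MVD: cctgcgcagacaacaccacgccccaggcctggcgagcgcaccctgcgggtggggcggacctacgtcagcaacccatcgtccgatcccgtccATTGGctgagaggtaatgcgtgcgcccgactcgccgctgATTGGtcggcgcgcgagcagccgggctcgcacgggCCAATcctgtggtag
NSDHL: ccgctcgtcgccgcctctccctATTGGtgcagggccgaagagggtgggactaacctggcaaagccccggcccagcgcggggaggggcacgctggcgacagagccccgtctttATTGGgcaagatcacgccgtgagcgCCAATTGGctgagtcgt
NPC1L1: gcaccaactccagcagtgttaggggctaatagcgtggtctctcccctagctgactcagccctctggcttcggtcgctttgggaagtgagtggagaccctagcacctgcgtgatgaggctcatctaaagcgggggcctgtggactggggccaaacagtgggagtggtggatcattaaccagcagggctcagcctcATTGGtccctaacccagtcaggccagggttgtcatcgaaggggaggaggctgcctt
SREBF2: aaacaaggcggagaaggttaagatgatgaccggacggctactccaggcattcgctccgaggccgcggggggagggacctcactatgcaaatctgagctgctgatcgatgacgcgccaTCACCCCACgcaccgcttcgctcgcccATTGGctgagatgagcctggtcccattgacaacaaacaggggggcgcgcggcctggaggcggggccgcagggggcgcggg

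The MVD stretch holds 3 CCAAT matches and the NSDHL stretch holds 4, of which the last pair overlaps. NPC1L1 and SREBF2 hold 1 each. Each stretch is the longest run of its 250-base window without an exon of a protein-coding gene. The MVD stretch therefore ends 71 bases and the NSDHL stretch 97 bases before the start site. The full NSDHL window holds 5 CCAAT matches. Any relation of these matches to the line differences was not tested.

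All 12 libraries held nearly the full TPM scale, and 18639 to 20900 genes per library lay above 0. TPM keeps no depth, so the sequencing depth of each library is unknown. Of the Huh-7 libraries, replicate 1 of si-NC was the least like its line, with a mean correlation to the other Huh-7 libraries of 0.965 against 0.975 to 0.978 for the others. The hepatocyte markers AFP, APOA1, APOA2, APOH, AHSG, AMBP, FGB and HNF4A summed to 6315 to 7389 TPM in Huh-7, where 7 of the 8 averaged at least 1 TPM. In MHCC-97H they summed to 0.82 to 2.32 TPM, none averaged 1 TPM, and APOH was listed at 0. Endothelial and adipocyte markers summed to at most 0.27 and 0.19 TPM in any library, and fibroblast markers to 2.15 to 7.36 TPM. Of the 5 blood and immune markers matched, CD14, CD68 and LYZ averaged at least 1 TPM in Huh-7 (summed list 51.8 to 75.2 TPM), and CD68 alone did in MHCC-97H (16.2 to 20.8 TPM). Of the 43 genes, 19 share annotated exon bases with another gene in GENCODE release 29, and 16 do so with a gene on the other strand. The largest shared parts are 79.4% of the exon bases of CYP51A1 (with the same-strand gene AC000120.2), 33.9% of ACAT2 with SOD2-OT1 and 26.5% with SOD2, 18.6% of FDPS (with RUSC1-AS1), 15% of HMGCS1 (with AC114947.2) and 14.8% of IDI1 (with IDI2-AS1). Whether the quantification used strand is not given in the sources used here. Reads within bases shared on the same strand cannot be told apart. Those within bases shared by opposite strands cannot be told apart if strand was not used.

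The order of levels across the 43 genes was similar in both lines, with exceptions. Summed over the 43 genes, Huh-7 held 1096 to 1293 TPM and MHCC-97H held 874 to 1072 TPM. The group means with si-NC, as log2(TPM + 1), correlated across the 43 genes between the lines at r = 0.855 and rho = 0.85. That is a description over genes measured in the same libraries, and the correlation over all tested genes was not computed. With si-NC, TM7SF2 ranked 13 of the 43 in Huh-7 and 36 in MHCC-97H. FADS2 ranked 7 and 27, and ELOVL6 ranked 8 and 25. EBP, the sterol isomerase, was the most abundant in both lines, at 341.5 TPM in Huh-7 and 231.1 in MHCC-97H with si-NC. MVD followed in Huh-7 at 133.1 TPM, and FDPS in MHCC-97H at 131.8 TPM. ELOVL1, which elongates saturated very-long-chain fatty acids, came next in both, at 81.9 and 88.2 TPM. FASN, the fatty acid synthase itself, stood at 65.5 and 54.4 TPM. At the other end, THRSP, a lipogenic nuclear protein, was listed at 0 in 10 of the 12 libraries and at 0.04 TPM in the other two.

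**Figure D1:**
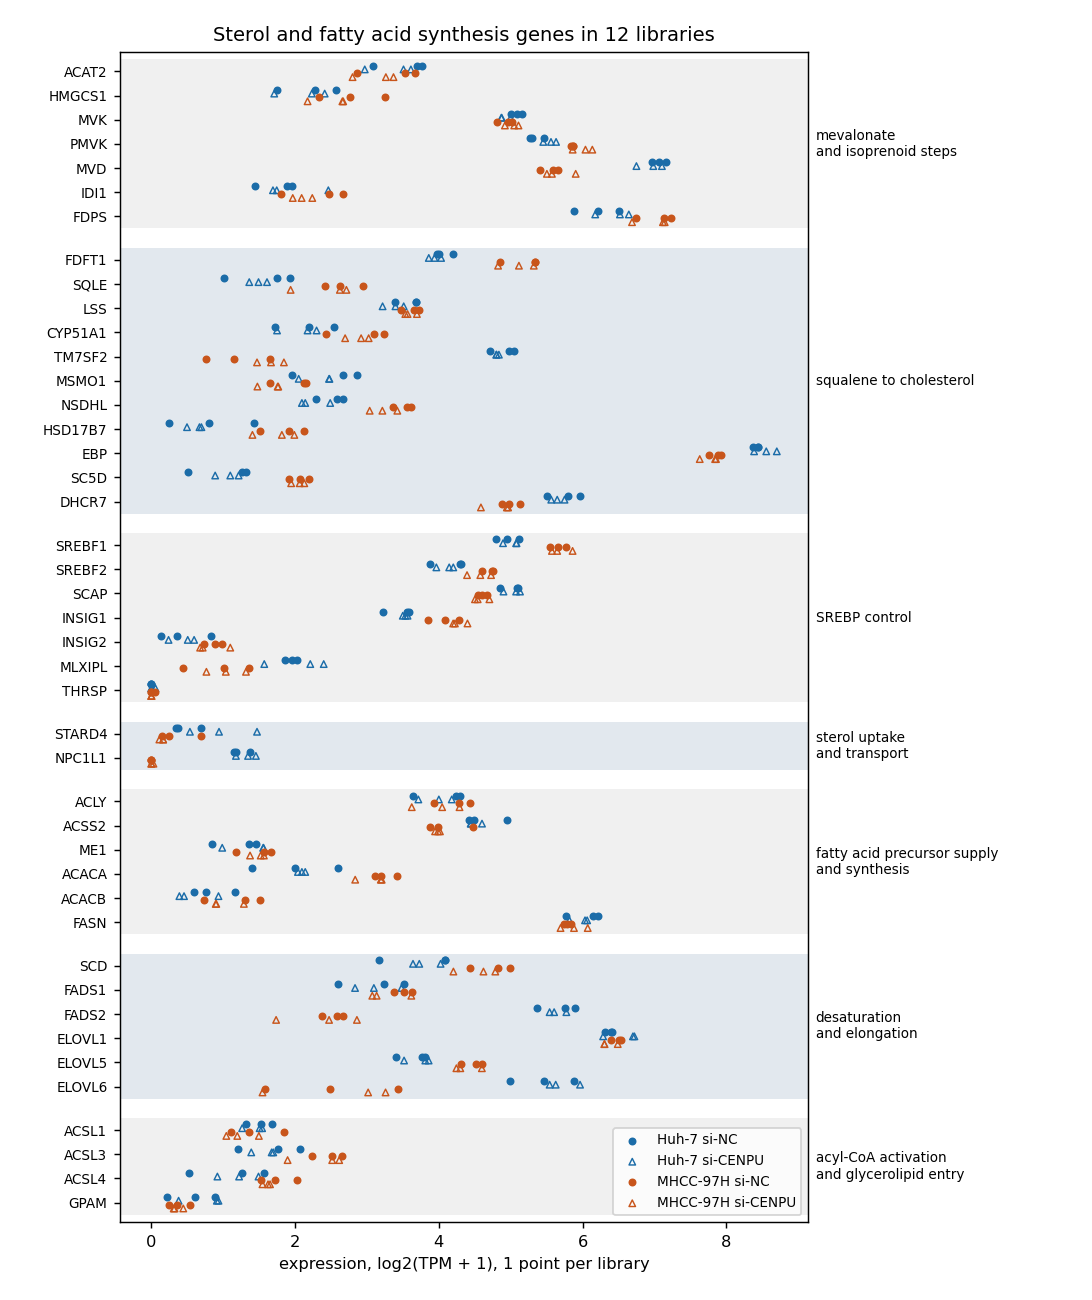
Expression of the 43 genes as log2(TPM + 1) on the horizontal axis, grouped by role, with 1 point per library (blue Huh-7, orange MHCC-97H, filled circles si-NC, open triangles si-CENPU). TM7SF2, FADS2 and ELOVL6 lie far to the left in the 6 MHCC-97H libraries, while filled and open symbols of the same colour lie together for nearly all genes.

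The siRNA comparison asks how expression differs when CENPU is silenced. None of the 37 tested genes of the set was called as changed after si-CENPU in either line. The test was limma on log2(TPM + 1), with p-values adjusted by the Benjamini-Hochberg method over all 11088 genes, and a call is an adjusted p below 0.05. Of the 37 tested genes, 0 were called in Huh-7 and 0 in MHCC-97H, where 0.00902% of all tested genes (1 gene) were called in each. The difference of responses between the lines also gave 0 of 37, beside 0.00902% (1 gene). At an unadjusted p below 0.05 the set held 0 of 37 in Huh-7 (all genes 4.57%), 1 of 37 in MHCC-97H (all genes 3.42%) and 0 of 37 in the difference of responses (all genes 3.45%). The groups did not overlap for 1 of 37 genes in Huh-7 (2.7%, all genes 7.65%) and for 1 of 37 in MHCC-97H (2.7%, all genes 6.95%). The 37 genes had a median log2 difference of -0.05 in Huh-7 (all tested genes 0.01) and of -0.11 in MHCC-97H (all tested genes -0.05). In Huh-7, 17 genes had a positive and 20 a negative difference (all genes 52.34% positive). In MHCC-97H these were 10 and 27 (all genes 34.95% positive). The 2 responses do not share libraries, but the lines share 1 estimate of the spread.

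The intervals bound what these libraries could hide. The median 95% interval of a gene's difference reached 0.44 to either side on the log2 scale. For 36 of the 37 genes in each line the interval stayed within a log2 difference of 1 either way. The exception in both lines was ELOVL6, the elongase of palmitate, with intervals of -0.82 to 1.36 in Huh-7 and -0.98 to 1.20 in MHCC-97H. For the difference of responses 29 of 37 intervals stayed within 1. Changes inside these intervals are not excluded by these libraries. The intervals are on log2(TPM + 1), which understates changes of low genes. An interval within 1 therefore does not bound the fold change of such genes. HSD17B7 averaged 0.877 TPM over the Huh-7 si-NC libraries, so even its full loss would stay within 1. The lowering of CENPU in Huh-7 came to only -0.41 on this scale, against -1.22 when 0.1 in place of 1 was added to TPM. A call asked for more than an interval without 0, since its p-value was adjusted over all tested genes.

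**Figure D2:**
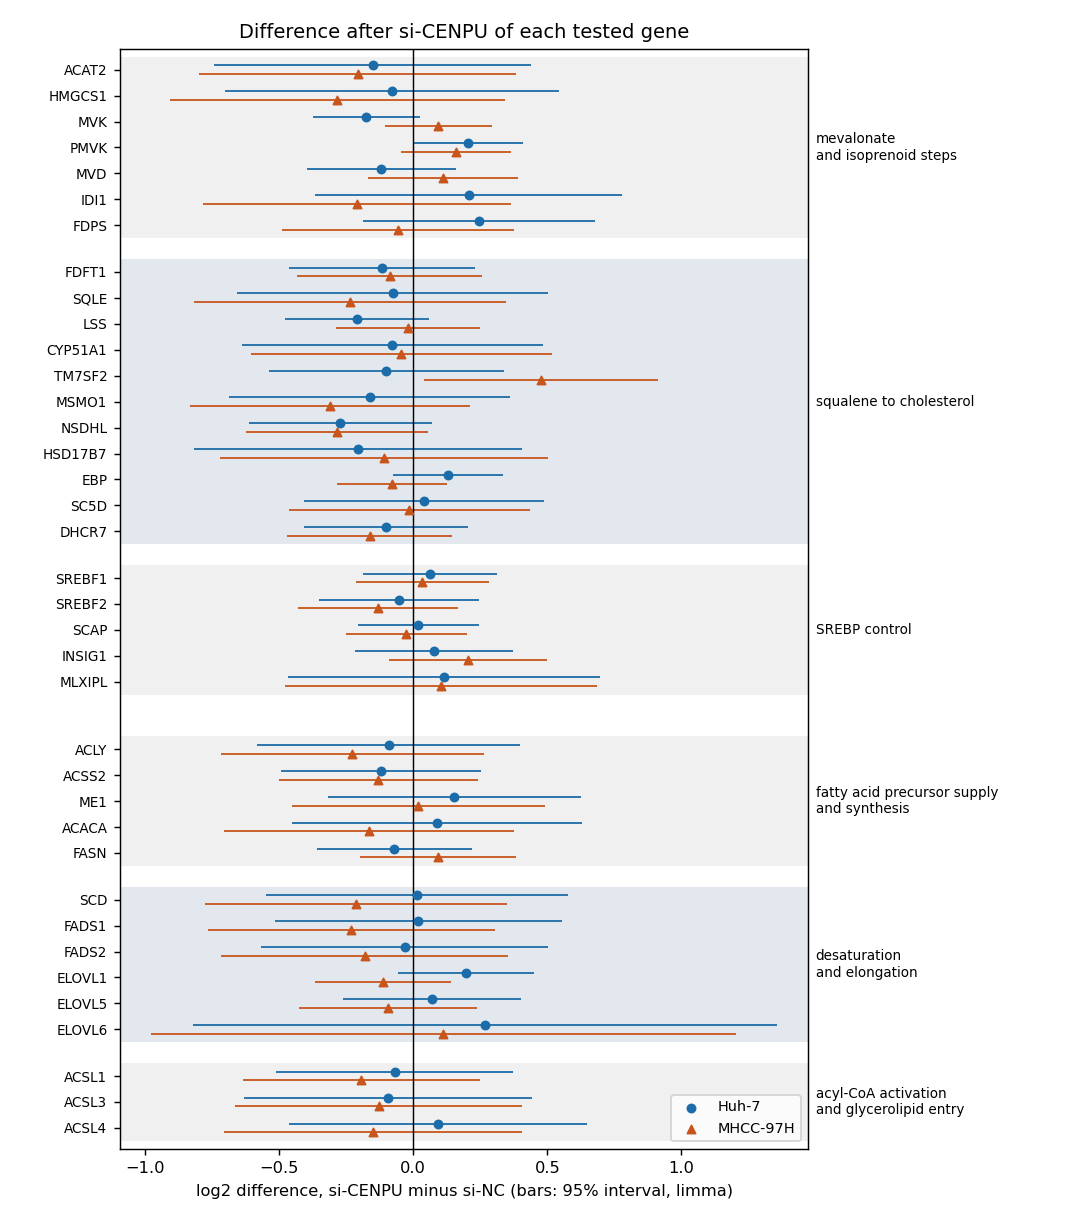
Log2 difference, si-CENPU minus si-NC, of each tested gene with its 95% interval from limma (blue circles Huh-7, orange triangles MHCC-97H), grouped by role. The points lie between -0.31 (MSMO1) and 0.48 (TM7SF2), and no adjusted p was below 0.05.

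Mevalonate kinase and the next enzyme, phosphomevalonate kinase, gave the smallest p-values in Huh-7, in opposite directions. MVK (chr12:109573255-109598117) gave 31.2, 33.1 and 34.9 TPM across the Huh-7 si-NC libraries and 31.0, 28.4 and 28.2 TPM across the si-CENPU ones, and it was the 1 gene of the set there whose groups did not overlap. Its log2 difference was -0.17 ± 0.09 (SE, limma unadjusted p = 0.0821, adjusted p = 1). The MHCC-97H libraries held 27.1, 30.2 and 31.4 TPM under si-NC and 33.5, 32.1 and 29.3 TPM under si-CENPU, where the groups overlapped. PMVK (chr1:154924734-154936991) was measured in Huh-7 at 37.6, 38.1 and 43.3 TPM under si-NC and at 42.8, 46.2 and 48.6 TPM under si-CENPU, with 1 library of each group crossing. Its log2 difference there was 0.20 ± 0.09 (limma unadjusted p = 0.0505, adjusted p = 1). In MHCC-97H the si-NC values were 56.2, 57.1 and 57.1 TPM and the si-CENPU values 64.8, 69.3 and 57.2 TPM, and these groups did not overlap, though the highest si-NC library (57.14 TPM) and the lowest si-CENPU library (57.16 TPM) were nearly equal. On the log2 scale the difference was 0.16 ± 0.09 (limma unadjusted p = 0.115, adjusted p = 1).

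Among the enzymes from squalene to cholesterol, NSDHL, the sterol 4-alpha-carboxylate dehydrogenase, had the most negative log2 difference of the set in Huh-7. NSDHL gave 3.90, 5.32 and 5.00 TPM across the Huh-7 si-NC libraries and 4.61, 3.27 and 3.41 TPM across the si-CENPU ones, and 10.7, 11.2 and 9.30 against 9.72, 8.28 and 7.21 TPM in MHCC-97H. Its fitted difference on the log2 scale was -0.27 ± 0.15 in Huh-7, with -0.28 ± 0.15 in MHCC-97H (limma unadjusted p = 0.107 and 0.0924, adjusted p = 1 in both), and the groups overlapped in both lines. LSS, which closes the ring to lanosterol, was measured in Huh-7 at 9.47, 11.9 and 11.8 TPM under si-NC and at 9.53, 8.30 and 10.4 TPM under si-CENPU. The overlap came from si-NC replicate 1, and the log2 difference was -0.21 ± 0.12 (limma unadjusted p = 0.114). EBP gave 348, 329 and 348 TPM across the Huh-7 si-NC libraries and 334, 416 and 375 TPM across the si-CENPU ones, again overlapping, with a log2 difference of 0.13 ± 0.09 (limma unadjusted p = 0.195).

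In MHCC-97H the smallest p of the set was that of TM7SF2, a sterol delta14-reductase. TM7SF2 was at 1.21, 0.69 and 2.14 TPM under si-NC and 1.77, 2.59 and 2.17 TPM under si-CENPU, so 1 si-CENPU library lay below the highest si-NC library. Its log2 difference was 0.48 ± 0.20 (limma unadjusted p = 0.0355, adjusted p = 1). In Huh-7 the same gene was at 25.2, 30.5 and 32.1 TPM under si-NC and 26.9, 26.9 and 27.6 TPM under si-CENPU, a log2 difference of -0.10 ± 0.20. The difference of its responses was 0.58 ± 0.28 (limma unadjusted p = 0.0648, adjusted p = 0.999). MSMO1, the C4-methyl sterol oxidase, was measured in MHCC-97H at 3.46, 3.34 and 2.15 TPM under si-NC and at 2.40, 2.38 and 1.78 TPM under si-CENPU, a log2 difference of -0.31 ± 0.24 (limma unadjusted p = 0.217). DHCR7, the last reductase of one branch, was at 28.6, 33.9 and 30.4 TPM under si-NC and 30.2, 29.8 and 23.0 TPM under si-CENPU, a log2 difference of -0.16 ± 0.14 (limma unadjusted p = 0.265). In both genes the lowest library of the si-CENPU group was replicate 3.

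No regulator was called after si-CENPU. INSIG1, which retains SCAP in the endoplasmic reticulum, gave 13.4, 18.5 and 15.9 TPM across the MHCC-97H si-NC libraries and 20.1, 17.4 and 17.7 TPM across the si-CENPU ones, with overlapping groups. Its fitted difference on the log2 scale was 0.20 ± 0.13 (limma unadjusted p = 0.156, adjusted p = 1), and 0.08 ± 0.13 in Huh-7. SREBF1, which encodes the SREBP that drives mainly lipogenic genes, had log2 differences of 0.06 ± 0.11 in Huh-7 and 0.03 ± 0.11 in MHCC-97H. SREBF2, which encodes the SREBP that drives mainly sterol genes, had -0.05 ± 0.14 and -0.13 ± 0.14. SCAP, the escort of both, had 0.02 ± 0.10 and -0.03 ± 0.10. The 6 intervals of these 3 genes ran from -0.43 at the lowest to 0.31 at the highest. Of the fatty acid genes, ELOVL1 gave the smallest p in Huh-7, at 78.2, 84.3 and 83.2 TPM under si-NC and 77.0, 104.5 and 103.0 TPM under si-CENPU. Its log2 difference was 0.20 ± 0.12 (limma unadjusted p = 0.116), with si-CENPU replicate 1 below all si-NC libraries, and -0.11 ± 0.12 in MHCC-97H. FASN had log2 differences of -0.07 ± 0.13 and 0.09 ± 0.13, and SCD, the stearoyl-CoA desaturase, 0.01 ± 0.26 and -0.21 ± 0.26.

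In 4 libraries most genes of the set lay below the mean of their line. For each library the deviation of every gene from the mean of its line was taken on log2(TPM + 1). In Huh-7 si-NC replicate 1 the median deviation of the 37 genes was -0.27, and 34 of them lay below the line mean. Over all tested genes the median there was -0.17, and 74.91% lay below the line mean. The other libraries with lowered genes were Huh-7 si-CENPU replicate 2 (-0.16, all genes -0.08), MHCC-97H si-CENPU replicate 3 (-0.21, all genes -0.14) and MHCC-97H si-NC replicate 3 (-0.10, all genes -0.11). The remaining 8 libraries had medians between 0.01 and 0.13. After a correction for transcript GC content the 4 medians were -0.30, -0.16, -0.19 and -0.11. In Huh-7 si-NC replicate 1 the share of TPM from mitochondrially encoded genes was 1.56%, against 2.28% to 3.50% in the rest of the line. The part of these features in the siRNA comparison was not tested. Without Huh-7 si-NC replicate 1 the median difference of the 37 genes in Huh-7 was -0.20 (all genes -0.07), with 8 of 37 positive (all genes 34.31%). Without Huh-7 si-NC replicate 2 it was 0.08 (all genes 0.05), with 27 positive (all genes 60.93%). It was also positive without si-NC replicate 3 (0.06, 22 positive, all genes 62.18%) or without si-CENPU replicate 2 (0.05, 26 positive, all genes 62.15%). Without si-CENPU replicate 3 it was -0.10 with 12 positive (all genes 42.52%). The sign of the median in Huh-7 therefore rests on single libraries of both groups. In MHCC-97H the median was -0.11 with 10 of 37 positive (all genes 34.95%). It was -0.01 with 18 positive without si-CENPU replicate 3 (all genes 50.41%) and -0.19 with 8 positive without si-NC replicate 3 (all genes 29.08%). It was -0.07 without si-NC replicate 1 (11 positive, all genes 46.35%) and -0.03 without si-NC replicate 2 (16 positive, all genes 40.64%). Without si-CENPU replicate 2 it was -0.17 (5 positive, all genes 28.13%). Trimmed-mean scaling gave -0.04 with 15 positive (all genes 48.78%). In each of these fits 0 genes of the set were called.

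**Figure D3:**
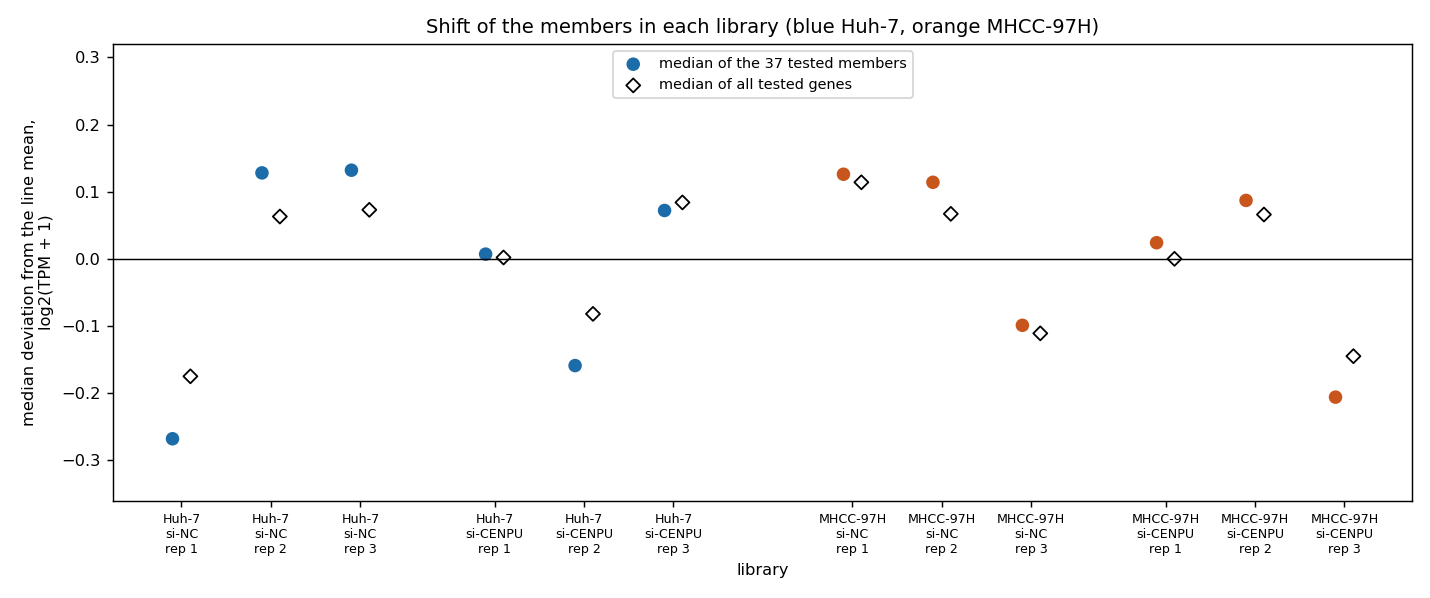
Median deviation from the line mean on log2(TPM + 1) in each of the 12 libraries, for the 37 tested genes of the set (filled circles, blue Huh-7, orange MHCC-97H) and for all tested genes (open diamonds). The lowest library is Huh-7 si-NC replicate 1 at -0.27 for the set and -0.17 for all genes.

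The 2 lines differed far more than the siRNAs. With si-NC, 25 of the 37 genes were called (67.6%), beside 73% of all tested genes. In MHCC-97H 16 were higher (43.2%, all genes 50.1%) and 9 were lower (24.3%, all genes 22.9%). With si-CENPU, 25 of 37 were called again, beside 70.1% of all tested genes, 15 higher (40.5%, all genes 46.2%) and 10 lower (27%, all genes 23.9%). These shares are near those of all genes. The median log2 difference, MHCC-97H minus Huh-7, was 0.39 with si-NC (all genes 0.49) and 0.14 with si-CENPU (all genes 0.40). In all, 24 genes of the set were called with both siRNAs and all 24 kept their sign, 15 higher and 9 lower in MHCC-97H. The share of all tested genes called with both siRNAs was not counted, so the 24 are no trait of the set. The comparisons with the 2 siRNAs use different libraries of the same lines.

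Which direction dominates depends on the scaling between the lines. With trimmed-mean scaling the median of all tested genes moved from 0.49 to 0.04 with si-NC and from 0.40 to 0.03 with si-CENPU. The set then split into 7 higher and 17 lower with si-NC (all genes 35.1% and 34%) and 6 higher and 16 lower with si-CENPU (all genes 34.1% and 34.1%), with medians of -0.09 and -0.22. Over 5 ways of scaling or GC correction and both siRNAs, 6 genes were called higher in MHCC-97H each time, namely FDFT1, SQLE, NSDHL, HSD17B7, SC5D and ACACA. In the same fits 8 were called lower each time, namely MVD, TM7SF2, EBP, DHCR7, MLXIPL, ACSS2, FADS2 and ELOVL6. How many of all tested genes were called each time was not counted, so the 6 and 8 only name genes. HSD17B7 passed the filter only through MHCC-97H, so its calls are tied to the filter. Another 12 genes of the set kept their sign but were not called each time, and LSS was called in both directions. A further 10 changed sign in some fit, namely ACLY, ELOVL1, FADS1, FASN, HMGCS1, IDI1, ME1, MVK, PMVK and SREBF2. Of these, ACLY, ELOVL1, FASN and MVK were called lower in MHCC-97H with both siRNAs after trimmed-mean scaling. That scaling ended both calls of FDPS, PMVK, CYP51A1, SREBF1, SREBF2, INSIG1, ELOVL5 and ACSL3, the si-NC call of ACSL4 and the si-CENPU call of SCD. The calls without an extra label below are those on TPM as deposited.

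**Figure D4:**
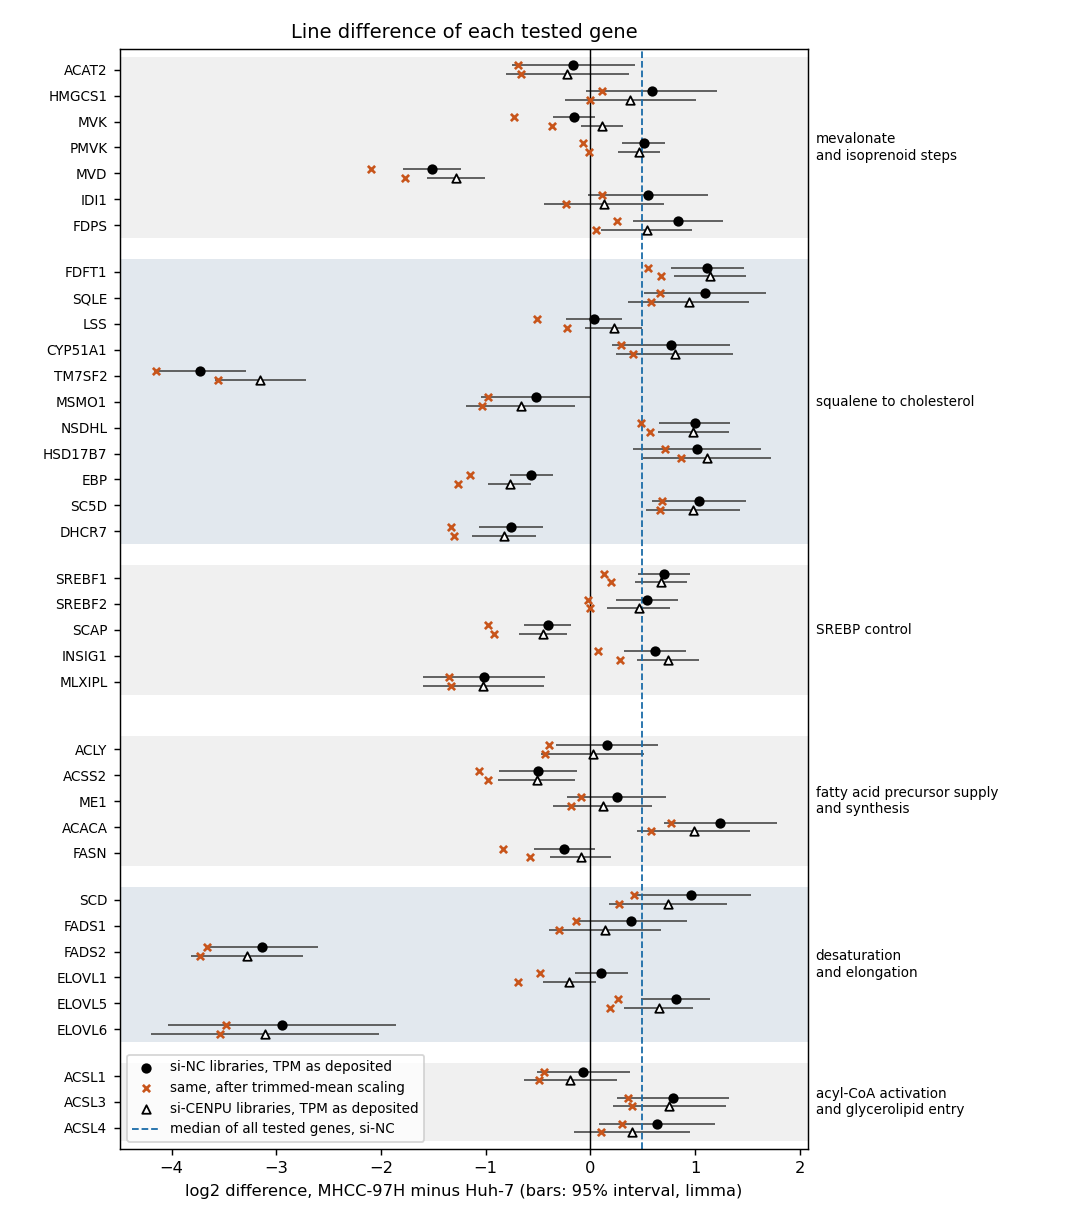
Log2 difference, MHCC-97H minus Huh-7, of each tested gene with its 95% interval from limma (filled circles si-NC, open triangles si-CENPU), grouped by role, with the values after trimmed-mean scaling as orange crosses and the si-NC median of all tested genes (0.49) as a dashed line. TM7SF2, FADS2 and ELOVL6 lie near or below -3 under either scaling, and MVD between -2.09 and -1.29.

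The mevalonate and isoprenoid enzymes did not differ in 1 direction. Of 7 tested, 2 were higher (FDPS and PMVK, the latter with a change of sign after trimmed-mean scaling), 1 was lower (MVD) and 4 were not called with either siRNA. MVD (chr16:88651935-88663161), the decarboxylase that makes isopentenyl diphosphate, was measured in Huh-7 at 124, 133 and 142 TPM under si-NC and at 126, 107 and 137 TPM under si-CENPU. Its values in MHCC-97H were 41.6, 47.0 and 49.3 TPM under si-NC and 44.4, 46.6 and 58.9 TPM under si-CENPU. Every Huh-7 library lay above every MHCC-97H library, and the si-NC means differed 2.90-fold. The log2 difference was -1.52 ± 0.13 with si-NC and -1.29 ± 0.13 with si-CENPU (limma adjusted p = 7.17e-07 and 3.08e-06). FDPS (chr1:155308748-155320666), the farnesyl diphosphate synthase, lay in the other direction, at 57.9, 72.9 and 90.2 TPM under si-NC and 71.3, 99.0 and 90.8 TPM under si-CENPU in Huh-7. The MHCC-97H libraries held 140, 149 and 106 TPM under si-NC and 138, 140 and 102 TPM under si-CENPU. The lowest MHCC-97H library was above the highest Huh-7 library, by a small margin. Its fitted difference on the log2 scale was 0.84 ± 0.20 with si-NC and 0.54 ± 0.20 with si-CENPU (limma adjusted p = 0.00245 and 0.0293), and after trimmed-mean scaling 0.26 and 0.05, no longer called.

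PMVK, whose libraries are given above, was 1.43-fold higher in MHCC-97H with si-NC, without overlap, with log2 differences of 0.51 ± 0.09 and 0.46 ± 0.09 (limma adjusted p = 0.000449 and 0.000918). Trimmed-mean scaling put it at -0.07 and -0.02, so the direction of PMVK is set by the scaling. MVK had a difference of -0.16 ± 0.09 with si-NC and 0.11 ± 0.09 with si-CENPU and was called with neither. The other 3 were ACAT2, which joins acetyl-CoA units in the cytosol, HMGCS1, the synthase of HMG-CoA, and IDI1, the isomerase of isopentenyl diphosphate. Their log2 differences were -0.16, 0.59 and 0.55 with si-NC and -0.22, 0.38 and 0.13 with si-CENPU, and none was called. After trimmed-mean scaling ACAT2 was at -0.695 and -0.658 (limma adjusted p = 0.00477 and 0.00671), called lower in MHCC-97H.

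**Figure D5:**
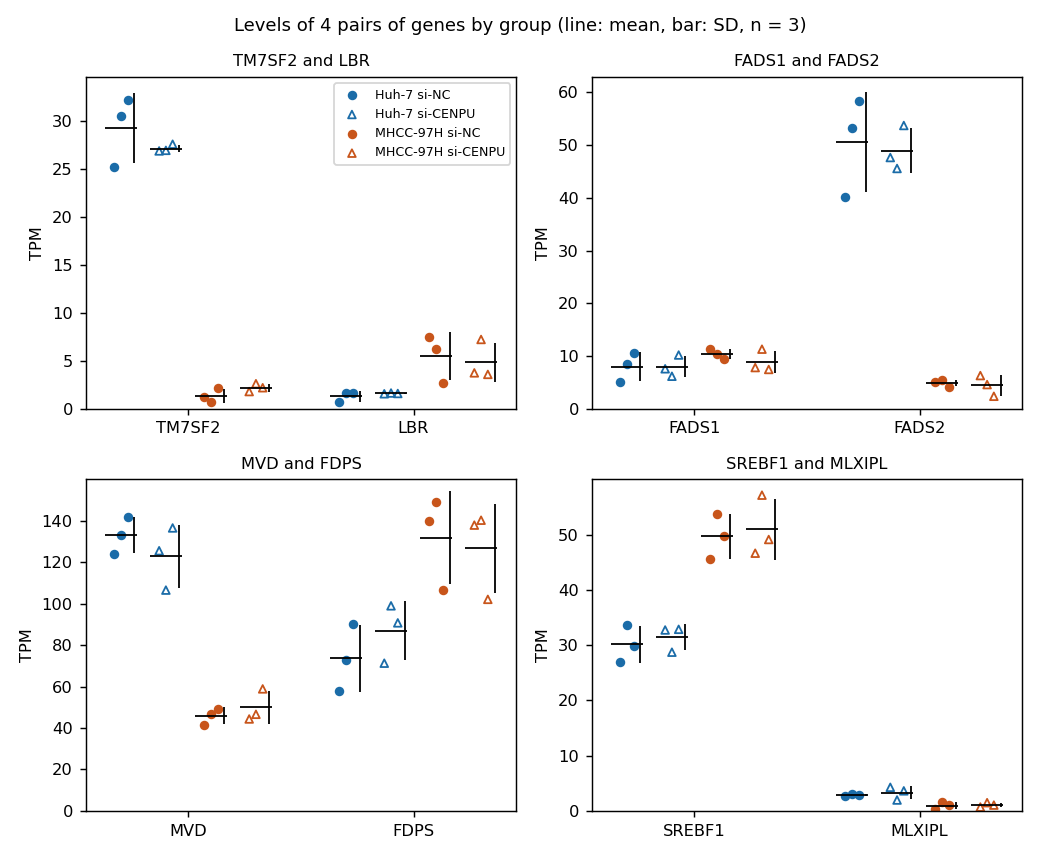
TPM by library for TM7SF2 and LBR, FADS1 and FADS2, MVD and FDPS, and SREBF1 and MLXIPL, in the 4 groups (blue Huh-7, orange MHCC-97H, filled si-NC, open si-CENPU), with the mean as a line and the SD as a bar, n = 3. On TPM as deposited the genes of each pair except FADS1 and FADS2 differ between the lines in opposite directions, and FADS1 stays between 5.04 and 11.3 TPM in all 12 libraries.

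With si-NC the largest line difference of the set, that of TM7SF2, lay among the late sterol enzymes, while with si-CENPU FADS2 was slightly further from 0. Of 11 late enzymes tested, 6 were higher in MHCC-97H with both siRNAs (FDFT1, SQLE, CYP51A1, NSDHL, HSD17B7 and SC5D). Of these 6, HSD17B7 passed the filter only through MHCC-97H. Another 3 were lower with both siRNAs (TM7SF2, EBP and DHCR7). TM7SF2 (chr11:65111845-65116384) was at 25.2 to 32.1 TPM in the 6 Huh-7 libraries and 0.69 to 2.59 TPM in the 6 MHCC-97H libraries given above. The si-NC means differed 21.7-fold and the si-CENPU means 12.5-fold. The fitted log2 difference was -3.73 ± 0.20 with si-NC and -3.15 ± 0.20 with si-CENPU (limma adjusted p = 1.31e-08 and 5.86e-08). LBR, the other gene whose protein reduces the same sterol bond, is no gene of the set and was named after its values were seen. It gave 0.65, 1.57 and 1.63 TPM across the Huh-7 si-NC libraries and 1.54, 1.62 and 1.57 TPM across the si-CENPU ones, against 7.51, 6.21 and 2.64 TPM and 3.72, 7.20 and 3.56 TPM in MHCC-97H. LBR was thus higher where TM7SF2 was lower, with log2 differences of 1.44 ± 0.33 and 1.12 ± 0.33 (limma adjusted p = 0.00193 and 0.00923).

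FDFT1, the squalene synthase that commits the pathway to sterols, was measured in Huh-7 at 14.7, 17.4 and 15.1 TPM under si-NC and at 14.3, 13.5 and 15.3 TPM under si-CENPU. In MHCC-97H the si-NC values were 39.5, 39.4 and 27.8 TPM and the si-CENPU values 33.6, 39.0 and 27.3 TPM. The lines did not overlap, the si-NC means differed 2.26-fold, and replicate 3 was the lowest of each MHCC-97H group. On the log2 scale the difference was 1.12 ± 0.16 with si-NC and 1.14 ± 0.16 with si-CENPU (limma adjusted p = 6.31e-05 and 5.32e-05). SQLE, the squalene epoxidase, gave 1.02, 2.37 and 2.80 TPM across the Huh-7 si-NC libraries and 2.05, 1.81 and 1.57 TPM across the si-CENPU ones. Its values in MHCC-97H were 6.70, 5.17 and 4.33 TPM under si-NC and 5.56, 5.16 and 2.83 TPM under si-CENPU. The lines did not overlap, but the highest Huh-7 library (2.80 TPM) and the lowest MHCC-97H library (2.83 TPM) were nearly equal. The log2 difference was 1.10 ± 0.26 and 0.94 ± 0.26 (limma adjusted p = 0.00296 and 0.00798).

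The other late enzymes called with both siRNAs had smaller or less abundant differences. NSDHL was 2.20-fold higher in MHCC-97H with si-NC (log2 difference 0.997 ± 0.15), SC5D, the lathosterol oxidase, 2.89-fold (1.03 ± 0.20) and HSD17B7, the 3-keto sterol reductase, 3.02-fold (1.02 ± 0.28). HSD17B7 averaged 0.708 TPM in Huh-7 and 2.52 TPM in MHCC-97H and was the 1 tested gene of the set under 1 TPM in a line, so it passed the filter through MHCC-97H. Its line calls are therefore tied to the filter, and every count of genes called higher on TPM as deposited includes it. CYP51A1, the lanosterol demethylase, had log2 differences of 0.77 ± 0.26 and 0.81 ± 0.26. After trimmed-mean scaling they were 0.29 and 0.41 (limma adjusted p = 0.162 and 0.0591), and the si-NC call was also lost under quantile scaling, the GC correction and a fit of the 2 groups alone. EBP was 1.48-fold higher in Huh-7 with si-NC, and DHCR7 1.73-fold, with log2 differences of -0.56 ± 0.09 and -0.76 ± 0.14. MSMO1 was measured in Huh-7 at 2.89, 6.29 and 5.34 TPM under si-NC and at 4.55, 3.14 and 4.57 TPM under si-CENPU, above most of its MHCC-97H libraries, which are given above. Its log2 difference was -0.52 ± 0.24 with si-NC (limma adjusted p = 0.0676) and -0.67 ± 0.24 with si-CENPU (limma adjusted p = 0.0259), so it was called with 1 siRNA only. LSS had 0.03 ± 0.12 and 0.22 ± 0.12 and was not called. After trimmed-mean scaling LSS was at -0.51 and -0.22 (limma adjusted p = 0.00135 and 0.0859), called lower with si-NC.

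Among the regulators, SREBF1, SREBF2 and INSIG1 were higher in MHCC-97H with both siRNAs on TPM as deposited, none of which held its call after trimmed-mean scaling, and SCAP and MLXIPL were lower. SREBF1 (chr17:17810399-17837002) gave 26.9, 33.6 and 29.9 TPM across the Huh-7 si-NC libraries and 32.7, 28.7 and 32.9 TPM across the si-CENPU ones. The MHCC-97H libraries held 45.6, 53.6 and 49.7 TPM under si-NC and 46.6, 57.1 and 49.1 TPM under si-CENPU. Every MHCC-97H library lay well above every Huh-7 library. The fitted log2 difference was 0.71 ± 0.11 with si-NC and 0.68 ± 0.11 with si-CENPU (limma adjusted p = 0.000171 and 0.000243), and 0.13 and 0.20 after trimmed-mean scaling, not called. SREBF2 had 0.54 ± 0.14 and 0.46 ± 0.14, which trimmed-mean scaling put at -0.02 and -0.004. INSIG1 (chr7:155297776-155310235) was measured in Huh-7 at 8.35, 10.8 and 10.9 TPM under si-NC and at 10.8, 10.6 and 10.3 TPM under si-CENPU, all below its MHCC-97H libraries. Its fitted difference on the log2 scale was 0.62 ± 0.13 and 0.74 ± 0.13 (limma adjusted p = 0.00151 and 0.00043), and 0.07 and 0.29 after trimmed-mean scaling, not called.

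MLXIPL (chr7:73593194-73624543) encodes ChREBP, the carbohydrate-responsive factor that acts beside the SREBPs on lipogenic genes. It gave 2.62, 3.06 and 2.89 TPM across the Huh-7 si-NC libraries and 4.27, 1.97 and 3.63 TPM across the si-CENPU ones, and 0.35, 1.57 and 1.01 TPM and 0.70, 1.49 and 1.05 TPM in MHCC-97H. The lines did not overlap, and the log2 difference was -1.01 ± 0.26 and -1.02 ± 0.26 (limma adjusted p = 0.00487 and 0.00489). SCAP had -0.41 ± 0.10 and -0.45 ± 0.10 (limma adjusted p = 0.00392 and 0.00217), and lost its calls under the GC correction. INSIG2, the second retention protein, was too low for the test, at 0.10 to 0.77 TPM in Huh-7 and 0.60 to 1.14 TPM in MHCC-97H. Its exact permutation p for the line difference was 0.2 with si-NC and 0.1 with si-CENPU, the smallest possible. INSIG1 was thus the more abundant of the pair in every library.

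Both uptake and transport genes averaged under 1 TPM. NPC1L1 (chr7:44512535-44541315), which takes up free cholesterol and is made in human liver and intestine, was measured in Huh-7 at 1.22, 1.26 and 1.60 TPM under si-NC and at 1.54, 1.26 and 1.74 TPM under si-CENPU. It was listed at 0 in 5 MHCC-97H libraries and at 0.02 TPM in si-CENPU replicate 1, so the lines did not overlap. STARD4, a soluble carrier of cholesterol, gave 0.29, 0.27 and 0.61 TPM across the Huh-7 si-NC libraries and 0.92, 1.77 and 0.45 TPM across the si-CENPU ones. In MHCC-97H the si-NC values were 0.18, 0.62 and 0.11 TPM and the si-CENPU values 0.08, 0.12 and 0.12 TPM. The exact permutation p of the siRNA difference of STARD4 was 0.2 in Huh-7, against 0.3 in MHCC-97H, and that of NPC1L1 between the lines was 0.1 with each siRNA.

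The enzymes that supply and build fatty acids were mostly not called on TPM as deposited. Of 5 tested, ACACA was higher and ACSS2 lower in MHCC-97H with both siRNAs, and ACLY, ME1 and FASN were not called. ACACA (chr17:37084988-37406818), the carboxylase that makes malonyl-CoA, was measured in Huh-7 at 1.64, 3.01 and 5.07 TPM under si-NC and at 3.41, 3.11 and 3.27 TPM under si-CENPU. Its values in MHCC-97H were 9.73, 7.63 and 8.14 TPM under si-NC and 8.22, 8.14 and 6.14 TPM under si-CENPU. No library of 1 line reached the other, and the si-NC means differed 2.62-fold. On the log2 scale the difference was 1.24 ± 0.25 with si-NC, the highest of the set, and 0.99 ± 0.25 with si-CENPU (limma adjusted p = 0.000809 and 0.00388). ACACB, the second carboxylase, was at 0.31 to 1.24 TPM in Huh-7 and 0.66 to 1.85 TPM in MHCC-97H, with an exact permutation p of 0.3 for either line comparison. ACSS2, which makes acetyl-CoA from acetate, had -0.50 ± 0.17 and -0.51 ± 0.17 (limma adjusted p = 0.0186 and 0.0179), and its si-NC groups overlapped. FASN had -0.25 ± 0.13 and -0.09 ± 0.13 (after trimmed-mean scaling -0.83 and -0.57, called lower), and ACLY, which makes acetyl-CoA from citrate, 0.16 ± 0.22 and 0.02 ± 0.22 (after trimmed-mean scaling -0.40 and -0.44, called lower). ME1, a source of NADPH for synthesis, had 0.25 ± 0.22 and 0.12 ± 0.22.

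Desaturases and elongases differed between the lines in both directions. Of 6 tested, SCD and ELOVL5 were higher and FADS2 and ELOVL6 lower in MHCC-97H with both siRNAs. FADS2 (chr11:61792980-61867354), the delta-6 desaturase of polyunsaturated fatty acids, gave 40.1, 53.3 and 58.4 TPM across the Huh-7 si-NC libraries and 47.6, 45.6 and 53.7 TPM across the si-CENPU ones. The MHCC-97H libraries held 4.97, 5.35 and 4.16 TPM under si-NC and 6.26, 4.55 and 2.33 TPM under si-CENPU. The lines were far apart in every library, and the si-NC means differed 10.5-fold. The log2 difference was -3.13 ± 0.24 and -3.28 ± 0.24 (limma adjusted p = 3.73e-07 and 2.48e-07). FADS1, the delta-5 desaturase that acts later on the same fatty acids, was measured in Huh-7 at 5.04, 8.43 and 10.5 TPM under si-NC and at 7.55, 6.13 and 10.2 TPM under si-CENPU, and at 11.3, 10.4 and 9.38 TPM and 7.78, 11.3 and 7.42 TPM in MHCC-97H. The lines overlapped, and FADS1 was not called, with 0.39 ± 0.24 and 0.14 ± 0.24. FADS1 lies within the span of FADS2 on the other strand and shares 490 exon bases with it. If the quantification did not use strand, reads of that stretch cannot be told apart.

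ELOVL6 (chr4:110045846-110199199) gave 58.0, 30.8 and 42.9 TPM across the Huh-7 si-NC libraries and 45.6, 48.4 and 61.5 TPM across the si-CENPU ones. In MHCC-97H the si-NC values were 4.58, 9.76 and 1.98 TPM and the si-CENPU values 1.92, 8.57 and 7.09 TPM. The MHCC-97H libraries varied widely (SD 3.96 TPM around a mean of 5.44 with si-NC) but all lay far below Huh-7, and the si-NC means differed 8.08-fold. The fitted log2 difference was -2.95 ± 0.49 and -3.10 ± 0.49 (limma adjusted p = 0.000241 and 0.000169). SCD (chr10:100347124-100364834) was measured in Huh-7 at 8.0, 15.97 and 16.06 TPM under si-NC and at 12.2, 11.5 and 15.3 TPM under si-CENPU, and at 30.9, 27.3 and 20.6 TPM and 23.6, 26.6 and 17.4 TPM in MHCC-97H. The lines did not overlap, with log2 differences of 0.97 ± 0.26 and 0.74 ± 0.26 (limma adjusted p = 0.00527 and 0.023). After trimmed-mean scaling they were 0.41 and 0.28 (limma adjusted p = 0.0373 and 0.145), so the si-CENPU call of SCD was lost. ELOVL5, which elongates polyunsaturated fatty acids, had 0.82 ± 0.15 and 0.65 ± 0.15 (limma adjusted p = 0.000488 and 0.0024), and 0.26 and 0.19 after trimmed-mean scaling, not called (adjusted p = 0.0682 and 0.172). ELOVL1 gave 92.1, 89.6 and 82.9 TPM across the MHCC-97H si-NC libraries and 88.9, 78.0 and 78.0 TPM across the si-CENPU ones, inside the range of its Huh-7 libraries. Its log2 difference changed sign between the siRNAs, 0.11 ± 0.12 and -0.20 ± 0.12, and was not called.

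The acyl-CoA synthetases were of low abundance in both lines. ACSL3 (chr2:222860934-222944639), a synthetase of the endoplasmic reticulum and lipid droplets, was measured in Huh-7 at 1.31, 3.19 and 2.40 TPM under si-NC and at 2.19, 1.62 and 2.24 TPM under si-CENPU. Its values in MHCC-97H were 4.71, 5.31 and 3.73 TPM under si-NC and 4.72, 5.12 and 2.72 TPM under si-CENPU. Groups under the same siRNA did not overlap, and the log2 difference was 0.79 ± 0.24 and 0.76 ± 0.24 (limma adjusted p = 0.0122 and 0.0164). Without Huh-7 si-NC replicate 1 the si-NC call of ACSL3 was lost (limma adjusted p = 0.0506), as it was under quantile scaling and the GC correction. After trimmed-mean scaling the differences were 0.36 and 0.39 (limma adjusted p = 0.0926 and 0.068). ACSL4, which prefers arachidonate, gave 0.44, 1.97 and 1.39 TPM across the Huh-7 si-NC libraries and 1.81, 0.89 and 1.33 TPM across the si-CENPU ones. The MHCC-97H libraries held 3.09, 2.28 and 1.88 TPM under si-NC and 2.08, 2.14 and 1.92 TPM under si-CENPU. It was called with si-NC only, with 0.64 ± 0.25 and 0.40 ± 0.25 (limma adjusted p = 0.0387 and 0.18), and 7 of 12 fits that left out 1 library lost that call. ACSL1, the main synthetase of liver, had -0.07 ± 0.20 and -0.19 ± 0.20 and was not called. After trimmed-mean scaling it was at -0.444 and -0.489 (limma adjusted p = 0.0218 and 0.0138), called lower in MHCC-97H. GPAM, the mitochondrial enzyme of glycerolipid entry, was at 0.16 to 0.91 TPM in Huh-7 and 0.19 to 0.45 TPM in MHCC-97H, with exact permutation p-values of 0.5 and 0.2 between the lines.

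Leaving out each of the 12 libraries in turn, 21 of the 25 si-NC line calls and 19 of the 25 si-CENPU line calls held in every fit. The share of calls held was not counted over all tested genes. The calls lost in some fit were those of ACSL3, ACSL4, ACSS2 and CYP51A1 with si-NC, and of ACSL3, ACSS2, CYP51A1, FDPS, MSMO1 and SCD with si-CENPU. With si-NC, leaving out Huh-7 si-NC replicate 1 ended the call of each of the 4. CYP51A1 also lost it without MHCC-97H si-NC replicate 1 or 2 (limma adjusted p up to 0.0749), and ACSS2 without MHCC-97H si-NC replicate 1 or 3 (up to 0.0801). ACSL4 lost it without Huh-7 si-NC replicate 3, Huh-7 si-CENPU replicate 3, or replicate 1 or 2 of either MHCC-97H group as well (up to 0.154). With si-CENPU, Huh-7 si-CENPU replicate 2 was needed for the calls of ACSL3, ACSS2, CYP51A1 and SCD, and Huh-7 si-CENPU replicate 1 for those of FDPS, MSMO1 and SCD. MHCC-97H si-CENPU replicate 1 was needed for ACSL3, FDPS and SCD, and replicate 2 of that group for ACSL3, CYP51A1, FDPS and SCD. MSMO1 also lost its call without replicate 3 of either si-CENPU group. The largest limma adjusted p was 0.0687 for ACSL3, 0.0601 for ACSS2, 0.0643 for CYP51A1, 0.117 for FDPS, 0.0848 for MSMO1 and 0.0871 for SCD. Other genes gained a call. Without Huh-7 si-NC replicate 1, MSMO1 (log2 difference -0.79, limma adjusted p = 0.00505) and FASN (-0.39, adjusted p = 0.014) were called with si-NC. HMGCS1 and IDI1 were called with si-NC without MHCC-97H si-NC replicate 3 (limma adjusted p = 0.0293 and 0.0133), HMGCS1 also without Huh-7 si-NC replicate 2 (0.0441) and IDI1 without Huh-7 si-CENPU replicate 3 (0.049). ELOVL1 was called with si-CENPU without Huh-7 si-CENPU replicate 1 (log2 difference -0.35, limma adjusted p = 0.00539). Leaving out Huh-7 si-NC replicate 1 moved the si-NC median of the set from 0.39 to 0.13 (all genes 0.39). In that fit 13 of the 37 genes were called higher and 10 lower. Of all 11088 tested genes, 5006 were called higher and 2642 lower there. The hepatocyte markers above differed between the lines in the same libraries as the set, and their part in these differences was not tested.

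A further 54 genes around the pathway were described for context, of which 45 were tested. Several of these averaged under 1 TPM in 1 line and passed the filter only through the other. Among them were FABP1, SOAT2 and ELOVL2, low in MHCC-97H, and SCARB1, ME3, LIPA, MBTPS2, RNF139, LPIN3 and NUS1, low in Huh-7. Their line calls are therefore tied to the filter. After si-CENPU 0 of 45 were called in either line or in the difference of responses. The smallest p in Huh-7 was that of SLC27A5, a bile acyl-CoA synthetase, with a log2 difference of -0.35 ± 0.15 (limma unadjusted p = 0.0427, adjusted p = 1). In MHCC-97H it was that of SPRING1, which licenses the protease that cuts SREBPs, at 8.17, 10.2 and 7.74 TPM under si-NC and 6.91, 6.25 and 5.44 TPM under si-CENPU. Its groups did not overlap, and the log2 difference was -0.43 ± 0.15 (limma unadjusted p = 0.0136, adjusted p = 1). In Huh-7 SPRING1 differed by 0.20 ± 0.15, and the difference of responses was -0.63 ± 0.21 (limma unadjusted p = 0.0107, adjusted p = 0.999). LIPA, the lysosomal acid lipase, followed with -0.44 ± 0.17 in MHCC-97H and 0.26 ± 0.17 in Huh-7, where it averaged 0.143 TPM with si-NC and 0.363 TPM with si-CENPU. Between the lines, 27 of the 45 were called higher in MHCC-97H with si-NC (all genes 50.1%) and 8 lower (all genes 22.9%). With si-CENPU 24 were called higher (all genes 46.2%) and 10 lower (all genes 23.9%). Over the 5 ways of scaling or GC correction and both siRNAs, 19 of the 45 were called higher and 7 lower each time. Both counts include genes tied to the filter, and the same was not counted over all tested genes. FABP1, the liver fatty acid binding protein, was at 171 to 270 TPM in Huh-7 and listed at 0 in all 6 MHCC-97H libraries. SOAT2, the cholesterol esterifying enzyme of hepatocytes and enterocytes, was at 7.23 to 10.4 TPM in Huh-7 and listed at 0 in 5 of 6 MHCC-97H libraries. SCARB1, the receptor of high density lipoprotein, was listed at 0 in 5 of 6 Huh-7 libraries and at 50.1 to 61.0 TPM in MHCC-97H. ME3, a mitochondrial malic enzyme, was at 0.17 to 0.64 TPM in Huh-7 and 16.1 to 27.2 TPM in MHCC-97H. A listed 0 may be a failed estimate, so no fold is given for these genes.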

How the data were processed

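The deposited values are TPM for 60664 Ensembl identifiers in 12 libraries, made by the authors with HISAT2 and StringTie on GRCh38.p13, per the submitters' processing notes, which name no versions. Not given in the sources used here are the annotation release, the use of strand and any filter applied before deposit. All 12 value columns were mapped to samples by title, and 0 were left unused. The 43 members and the further pathway genes were chosen with earlier results of these data known.

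TPM was taken as log2(TPM + 1), which understates changes of low genes. Genes averaging at least 1 TPM were tested in limma 3.58.1 (R 4.3.3), with 1 mean per group over all 12 libraries, a mean-variance trend and Benjamini-Hochberg adjustment within each contrast, called below 0.05. CENPU and the 6 members under 1 TPM were given exact two-sided permutation tests of 3 against 3 libraries. Full values are printed for called members of the siRNA contrasts, the 6 members with the smallest p in each, up to 3 non-overlapping members per role between the lines, members called with 1 siRNA or of changing sign, and low members. Gene coordinates and exon overlaps are from GENCODE release 29 (GRCh38), promoters from RefSeq (GRCh38.p14). Scripts were tested on simulated data. Alternatives covered pseudocounts, filters, scaling, GC content, moderation, the groups fitted, a replicate block and leaving out each library. Other tools were Python 3.11.15, pandas 2.3.3, numpy 2.4.6, SciPy 1.17.1 and matplotlib 3.10.9.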

Additional observations from a re-analysis of the deposited data

How the results depend on the processing

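The 0 members called after si-CENPU, in either line or between lines, stayed 0 under every setting. Of all genes, 1 was called in Huh-7, against 11 with a pseudocount of 0.1, 4 without a filter, 2 with trimmed-mean scaling, 3 with quantile scaling and 0 with a mean of at least 5 TPM or with 2 groups fitted alone. In MHCC-97H 1 became 7 without a filter, 4 trimmed, 7 quantile, 2 rescaled without mitochondrial and the 100 most abundant genes, and 0 with a pseudocount of 0.1, the GC correction, no trend or 2 groups alone. For the difference of responses 1 became 6 without a filter and 0 with pseudocounts of 0.1 or 0.5 or a mean of at least 5 TPM. Leaving out 1 library gave 0 to 4 genes in each of the 3 contrasts. Between the lines, a mean of at least 5 TPM gave 4405 genes with si-NC and 4282 with si-CENPU, with fewer genes tested, and moved the si-NC median of the members to 0.13. When trimmed, members split into 7 higher and 17 lower with si-NC (all genes 35.1% and 34%). With si-CENPU they split into 6 and 16 (all genes 34.1% and 34.1%). After quantile scaling, 3522 of all 11088 tested genes and 15 of the 37 tested members were called lower with si-NC. The medians were -0.093 and -0.048 with si-NC and -0.223 and -0.173 with si-CENPU (trimmed, quantile), and 0.127 to 0.572 and 0.092 to 0.31 without 1 library. Among the members with full values, the log2 differences that reversed were those of PMVK (trimmed, -0.067 and -0.017), ELOVL1 with si-NC (trimmed -0.48, quantile -0.15) and MVK with si-NC (GC, 0.025) and si-CENPU (trimmed -0.36, quantile -0.17). A further 8 members changed sign under some scaling, namely ACLY (trimmed, -0.40 and -0.44), FADS1 (trimmed, -0.14 and -0.30), FASN (GC, 0.06 and 0.08), LSS (trimmed, -0.51 and -0.22), HMGCS1 with si-CENPU (trimmed, -0.006), IDI1 with si-CENPU (trimmed, -0.23), ME1 (trimmed, -0.09 and -0.18) and SREBF2 (trimmed, -0.02 and -0.004). The cause was not tested.

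Replicate numbers did not pair the libraries: deviations of same-numbered libraries correlated at -0.12 to 0.13, and 0 to 2 of 3 libraries matched their own number best. With the number as a block Huh-7 had 1 gene called, and MHCC-97H and the difference of responses had 0 each.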
